A study of Homo sapiens with 12 samples.

Results

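Expression of 10 inflammatory cytokine genes was examined: the chemokines CCL2, CCL3, CCL4, CCL5, CXCL2, CXCL8 and CXCL16, and the interleukin-1 family genes IL1B, IL1RN and IL18. The genes were chosen by name, and 7 of the 10 have a row in the table used, among 13881 genes listed. CCL4, CXCL2 and CXCL16 are not analysed here. All 7 passed the filter on low levels (at least 1 FPKM in at least 3 libraries), as did 13353 genes in all. FPKM counts fragments relative to transcript length and to library size, so that levels of different genes can be set side by side.

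The RNA came from 2 established cell lines of human acute myeloid leukaemia, KG-1 and MOLM-14, each kept for 96 h in ASLAN003 or in the solvent DMSO. ASLAN003 inhibits dihydroorotate dehydrogenase, an enzyme of pyrimidine synthesis, and the labels do not state its dose. The 4 groups were KG-1 with ASLAN003, KG-1 with DMSO, MOLM-14 with ASLAN003 and MOLM-14 with DMSO, with 3 libraries in each, and both lines grew in RPMI medium with serum. Each line is 1 line of cells, and the labels do not say whether the replicates were separate cultures, so p-values speak only of the spread among the libraries at hand, possibly a technical one.

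Chemokines are small secreted proteins that draw leukocytes along a gradient by way of G protein-coupled receptors. CC chemokines such as CCL2, CCL3 and CCL5 act mainly on monocytes, T cells and other mononuclear cells, while CXCL8 and CXCL1 act mainly on neutrophils. Interleukin-1 beta, the product of IL1B, and interleukin-18 are made as inactive precursors that caspase-1 cleaves within inflammasomes, and the product of IL1RN occupies the interleukin-1 receptor without signalling. Monocytes and macrophages are a major source of all of these proteins.

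An estimated 17400000 to 18300000 fragments stood behind each library. Of 9 myeloid markers all had a row, with a summed level of 1497 to 1572 FPKM in KG-1 with ASLAN003, 608 to 645 FPKM in KG-1 with DMSO, 3450 to 4779 FPKM in MOLM-14 with ASLAN003 and 1163 to 1239 FPKM in MOLM-14 with DMSO. In the same order LYZ alone had means of 846, 91.7, 3411 and 674 FPKM. The sum thus does not stand for all 9 markers, and MPO was lower with ASLAN003 in both lines. Of 7 T and NK cell markers only CD3D had a row, at 0.22 FPKM or less in every library. CD34, a surface marker of progenitor cells, was at most 0.17 FPKM in any library. On the principal component that separated the treatments (16.3% of the variance), MOLM-14 ASLAN003 replicate 1 lay at -36.2, apart from replicates 2 and 3 at -14.6 and -9.37, and the MOLM-14 changes of the 7 genes, the counts of the lists and the calls of named genes were also computed without it.

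By their calls the 7 genes divided into 3 kinds. The chemokines CCL2, CCL3, CCL5 and CXCL8 rose strongly in KG-1 treated with ASLAN003 and did not pass the test in MOLM-14. In MOLM-14 CCL5 came close to the threshold (0.67, limma adjusted p = 0.0635), the call of CXCL8 depended on 1 library, and CCL2 was at most 0.10 FPKM. IL1B and its antagonist IL1RN rose in both lines, and IL18 passed in neither. In KG-1, 6 of the 7 genes were called (adjusted p under 0.05), all higher, against 33.7% of all tested genes called and 19.4% called higher. CCL3 passed the filter only through the treated KG-1 libraries, where it is high, so it had to differ and adds nothing to the counts of called genes. The treated libraries of these 6 lay above all their controls, as they did for 31.4% of all tested genes. In MOLM-14, 2 of the 7 were called, both higher, against 13.0% called and 9.69% called higher, and 3 had all treated libraries above all controls, against 17.7%. Without ASLAN003 replicate 1 the same 2 genes, IL1B and IL1RN, were called in MOLM-14. The median log2 change of the 7 was 2.65 in KG-1 and 0.65 in MOLM-14, and that of all tested genes was 0.05 in KG-1 and 0.08 in MOLM-14. The KG-1 median of the 7 includes CCL3 and is given as a description only. The direct test of the difference between the changes in the 2 lines called CCL2, CCL3, CCL5 and CXCL8, 4 of the 7 and all with the larger change in KG-1, against 9.94% of all tested genes called and 5.05% called in that direction. Changes are differences in log2(FPKM + 1), which understate the change of genes with low levels, and tests are limma fits adjusted by Benjamini-Hochberg over all 13353 genes. The fit takes 1 spread per gene for all 4 groups, so SEs and intervals are not those of each line alone.

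**Figure D1:**
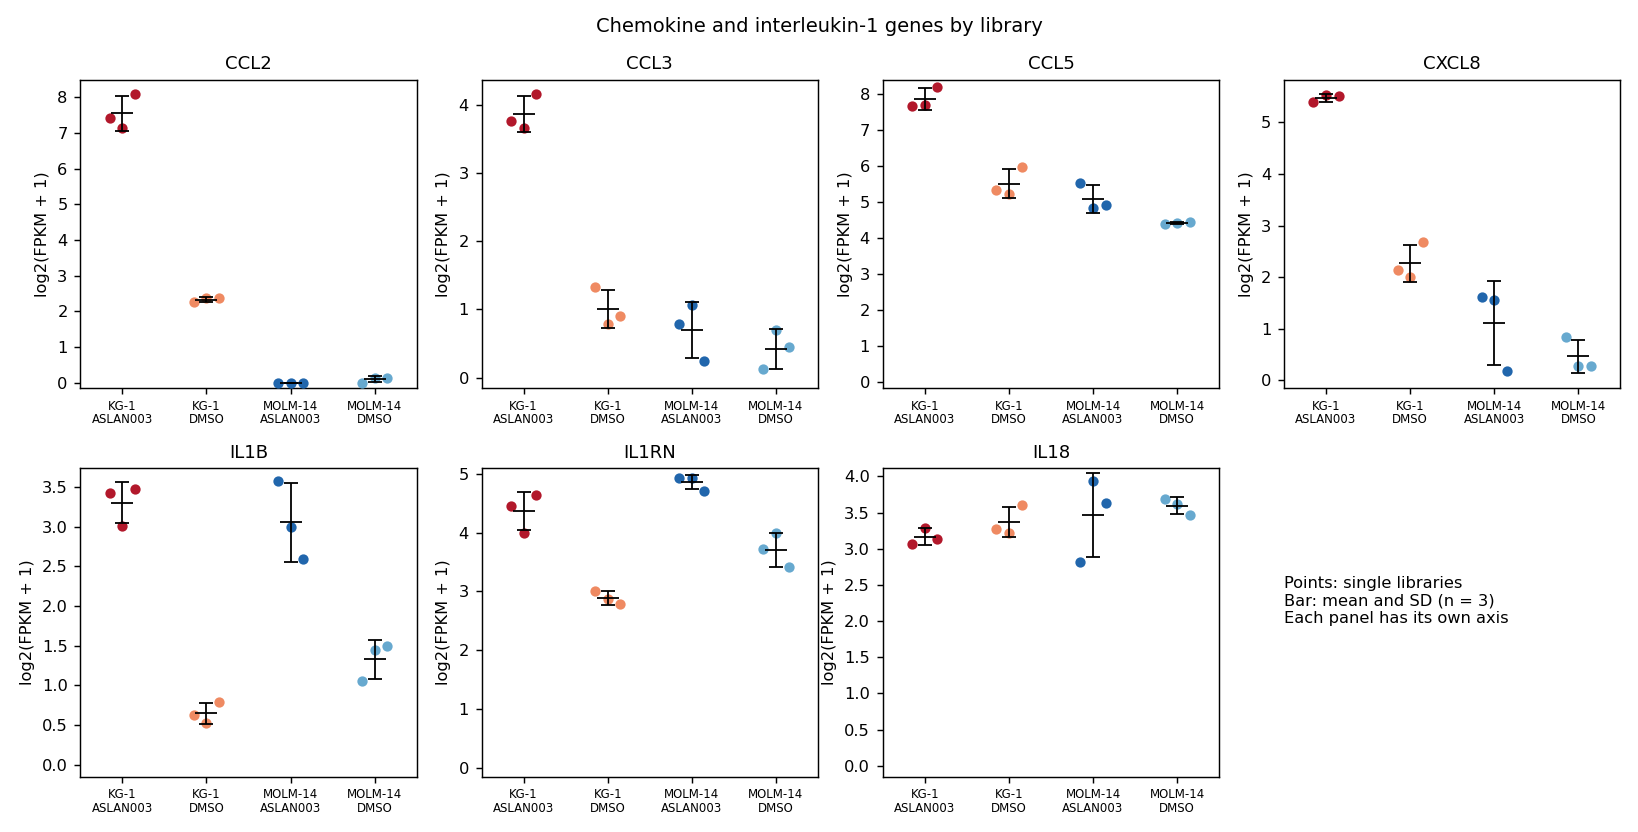
Level of each of the 7 measured genes, as log2(FPKM + 1), in KG-1 with ASLAN003, KG-1 with DMSO, MOLM-14 with ASLAN003 and MOLM-14 with DMSO. Points are single libraries and bars the mean and SD (n = 3), and each panel has its own axis. The 4 chemokines are highest in KG-1 with ASLAN003, IL1B and IL1RN are higher with ASLAN003 in both lines, and the IL18 groups overlap within each line.

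Promoter sequences are shown first, for 3 of the genes that rose with ASLAN003 in KG-1. RefSeq (GRCh38.p14) gave a promoter for 5 of the 10 genes (CCL3, CXCL2, CXCL8, IL1B and IL1RN), running from 250 bases before the transcript start. The printed stretches are chr4:73740319-73740505 (plus strand, 187 bases), chr17:36090170-36090393 (minus strand, 224 bases) and chr2:112836904-112837029 (minus strand, 126 bases). Each lies upstream of the gene start in GENCODE 29 and is written from 5′ to 3′ on the gene's strand. Capitals mark the AP-1 letters TGANTCA, the kappaB-like letters GGNNNTTCC and the PU.1 core GAGGAA, searched on both strands.
CXCL8: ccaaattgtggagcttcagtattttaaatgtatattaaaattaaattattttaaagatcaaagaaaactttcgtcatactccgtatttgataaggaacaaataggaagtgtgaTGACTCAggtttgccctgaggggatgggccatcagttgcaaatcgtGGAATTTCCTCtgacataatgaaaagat
CCL3: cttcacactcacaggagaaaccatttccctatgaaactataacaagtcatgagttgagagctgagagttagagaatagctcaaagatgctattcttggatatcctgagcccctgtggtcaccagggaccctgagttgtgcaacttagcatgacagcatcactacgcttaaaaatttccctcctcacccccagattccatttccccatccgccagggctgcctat
IL1B: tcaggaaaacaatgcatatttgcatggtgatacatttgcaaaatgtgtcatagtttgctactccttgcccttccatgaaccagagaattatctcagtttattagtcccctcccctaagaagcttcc

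The CXCL8 window of 250 bases held TGACTCA, an AP-1 match, beginning 137 bases before the transcript start. Beginning 91 bases before that start it held GGAATTTCC, which matches the kappaB-like letters on both strands and overlaps the PU.1 core on the minus strand. A TATAAA stood 31 bases before the CXCL8 start, in the unprinted part, and another stood 29 bases before the start of CCL3. These letters are common: AP-1 matched 6.57%, the kappaB-like letters 17.1%, the PU.1 core 23.6% and TATAAA 10.7% of 35116 promoter windows of the same length. The IL1B window held none of the 4 and the CCL3 window only TATAAA. Of the windows listed for IL1RN, 1 held an AP-1 match and another a kappaB-like match and TATAAA. The motifs were chosen after the sequences were seen, and a match is a run of letters, not a site shown to be bound.

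CCL2, the chief attractant of monocytes through the receptor CCR2, showed the largest change of the 7 genes in KG-1. The gene lies on chromosome 17 (34255218 to 34257203, plus strand, GRCh38). In KG-1 with ASLAN003 the 3 libraries had 170.64, 140.13 and 270.46 FPKM, against 3.78, 4.12 and 4.16 FPKM in KG-1 with DMSO. All 3 treated libraries lay far above all 3 controls. The means were 193.7 ± 68.2 FPKM with ASLAN003 and 4.02 ± 0.209 FPKM with DMSO (SD, n = 3 each), a ratio of 48.2, and the log2 change was 5.22 ± 0.21 (SE, limma adjusted p = 1.66e-08). In MOLM-14 the gene was listed at 0 in all 3 ASLAN003 libraries, against 0, 0.10 and 0.10 FPKM in DMSO. Levels this low allow no statement on a change in MOLM-14, and none was called (adjusted p = 0.829, and 0.853 without ASLAN003 replicate 1). The difference between the changes, KG-1 minus MOLM-14, was 5.31 ± 0.30 (SE, limma adjusted p = 1.79e-06). In bulk RNA, fewer cells that make a transcript and less of it per cell cannot be told apart.

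CCL3, which encodes the macrophage inflammatory protein MIP-1 alpha and acts through receptors such as CCR1, lies on the same chromosome (36088256 to 36090169, minus strand). KG-1 with ASLAN003 had 12.62, 11.61 and 16.92 FPKM, against 1.5, 0.72 and 0.88 FPKM with DMSO. The groups did not overlap, and the log2 change was 2.86 ± 0.26 (SE, limma adjusted p = 5.97e-06). MOLM-14 had 0.73, 1.09 and 0.19 FPKM with ASLAN003, against 0.09, 0.63 and 0.36 FPKM with DMSO. These ranges overlapped, and the change of 0.28 (95% interval -0.28 to 0.84) was not called (adjusted p = 0.533). Without ASLAN003 replicate 1 it was 0.23 (adjusted p = 0.661). The change was larger in KG-1 by 2.58 ± 0.36 (SE, limma adjusted p = 0.00138).

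CCL3 has a near-identical copy, CCL3L3, and fragments may be split between them by the authors' quantification. CCL3L3 had 30.95, 22.36 and 28.09 FPKM in KG-1 with ASLAN003, against 2.19, 1.30 and 2.46 FPKM with DMSO. Summed, the pair had 43.57, 33.97 and 45.01 FPKM with ASLAN003, against 3.69, 2.02 and 3.34 FPKM with DMSO, so the split does not bear on the direction. The log2 change of the sum was 3.40 (limma adjusted p = 1.16e-06), a test added after the data were seen. In MOLM-14 the sum was 2.76, 1.09 and 1.80 FPKM with ASLAN003 and 1.08, 0.89 and 1.59 FPKM with DMSO, which overlapped, as they do without ASLAN003 replicate 1.

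CXCL8, which encodes interleukin-8, the main neutrophil attractant of the CXC family, lies on chromosome 4 (73740506 to 73743716, plus strand). KG-1 with ASLAN003 had 40.98, 45.57 and 44.46 FPKM, against 3.38, 3.01 and 5.37 FPKM with DMSO. The treated libraries lay close together, at 43.7 ± 2.39 FPKM (SD, n = 3), a mean 11.1 times that with DMSO, and the log2 change was 3.21 ± 0.34 (SE, limma adjusted p = 1.63e-05). MOLM-14 had 2.06, 1.94 and 0.13 FPKM with ASLAN003, against 0.78, 0.21 and 0.21 FPKM with DMSO. Replicate 3 with ASLAN003 was below all 3 DMSO libraries and the other 2 were above them. The MOLM-14 change of 0.65 (95% interval -0.08 to 1.39) was not called (limma adjusted p = 0.231), and without ASLAN003 replicate 3 it was 1.12 (adjusted p = 0.00882). Without ASLAN003 replicate 1 it was 0.41 (adjusted p = 0.501). Between the lines the changes differed by 2.56 ± 0.48 (SE, limma adjusted p = 0.00609). With a pseudocount of 0.1 in place of 1 that difference was 2.29 and was not called (adjusted p = 0.196).

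CCL5, which encodes RANTES, an attractant of T cells and monocytes through receptors such as CCR1, had the highest mean level of the 7 genes in each of the 4 groups. It lies on chromosome 17 (35871491 to 35880793, minus strand), between CCL2 and CCL3. KG-1 with ASLAN003 had 200.96, 208.30 and 294.44 FPKM, against 39.45, 36.79 and 61.72 FPKM with DMSO. Treated libraries were all above control libraries, with a ratio of means of 5.10 and a log2 change of 2.34 ± 0.22 (SE, limma adjusted p = 7.47e-06). MOLM-14 had 45.66, 27.56 and 29.31 FPKM with ASLAN003, against 20.24, 20.51 and 20.90 FPKM with DMSO. Here too every treated library was above every control library, but the call fell short, with a log2 change of 0.67 (95% interval 0.19 to 1.15, limma adjusted p = 0.0635). Without MOLM-14 ASLAN003 replicate 1, the highest library, the change was 0.45 (adjusted p = 0.183). The adjusted p was 0.0427 without KG-1 DMSO replicate 3, 0.0475 without MOLM-14 ASLAN003 replicate 2 and 0.0276 after libraries were rescaled to a total that leaves out the mitochondrial, histone, ribosomal RNA and small RNA genes. The rise was larger in KG-1 by 1.67 ± 0.31 (SE, limma adjusted p = 0.00602).

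Together CCL2, CCL3, CCL5 and CXCL8 summed to 425, 406 and 626 FPKM in KG-1 with ASLAN003, against 48.1, 44.6 and 72.1 FPKM with DMSO. In MOLM-14 the sum was 48.4, 30.6 and 29.6 FPKM with ASLAN003, against 21.1, 21.5 and 21.6 FPKM with DMSO. The log2 difference of the MOLM-14 sum without ASLAN003 replicate 1, the highest library, was 0.48 (two-sided exact permutation p = 0.2, the smallest that 2 libraries against 3 can give). The make-up of the sum differed as well. CCL5 was 48.5% ± 2.44 of it in KG-1 with ASLAN003 and 83.3% ± 1.95 with DMSO (SD, n = 3 each), while CCL2 was 39.3% ± 4.38 with ASLAN003 and 7.62% ± 1.74 with DMSO. In MOLM-14 CCL5 was 94.4% ± 4.42 of the sum with ASLAN003 and 96.1% ± 0.674 with DMSO (SD, n = 3 each).

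IL1B, the agonist, rose in both lines. The gene lies on chromosome 2 (112829751 to 112836903, minus strand). KG-1 with ASLAN003 had 9.74, 7.07 and 10.13 FPKM, against 0.55, 0.44 and 0.73 FPKM with DMSO, with no overlap. The ratio of means was 15.7 and the log2 change 2.65 ± 0.25 (SE, limma adjusted p = 7.35e-06). MOLM-14 had 10.97, 6.95 and 5.02 FPKM with ASLAN003, against 1.07, 1.72 and 1.81 FPKM with DMSO. Again no libraries overlapped, with a ratio of means of 4.99 and a log2 change of 1.73 ± 0.25 (SE, limma adjusted p = 0.00112). Without MOLM-14 ASLAN003 replicate 1 the change was 1.46 (adjusted p = 0.00229).

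Treated libraries of the 2 lines overlapped in IL1B level, at 8.98 ± 1.67 FPKM in KG-1 and 7.65 ± 3.04 FPKM in MOLM-14 (SD, n = 3 each). The changes of IL1B were not shown to differ between the lines, with a difference of 0.93 (95% interval 0.17 to 1.69, limma adjusted p = 0.117). That difference was called without MOLM-14 ASLAN003 replicate 1 (1.19, adjusted p = 0.0181), after quantile normalization (1.19, adjusted p = 0.0394) and with libraries weighted by their spread (1.12, adjusted p = 0.0263).

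IL1RN, which encodes the interleukin-1 receptor antagonist, lies on the same chromosome as IL1B (113107214 to 113134016, plus strand) and also rose in both lines. KG-1 with ASLAN003 had 21.04, 15.00 and 23.84 FPKM, against 7.05, 6.31 and 5.89 FPKM with DMSO. MOLM-14 had 29.51, 29.48 and 25.30 FPKM with ASLAN003, against 12.23, 14.88 and 9.66 FPKM with DMSO. In neither line did the groups overlap. The log2 change was 1.48 ± 0.18 in KG-1 (SE, limma adjusted p = 5.75e-05) and 1.15 ± 0.18 in MOLM-14 (SE, limma adjusted p = 0.00201). Without MOLM-14 ASLAN003 replicate 1 the MOLM-14 change was 1.11 (adjusted p = 0.00612). The difference between the changes was 0.33 (95% interval -0.23 to 0.89, limma adjusted p = 0.479).

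The balance of antagonist to agonist transcript was lower with ASLAN003 in both lines. In KG-1 the ratio of IL1RN to IL1B, in FPKM within a library, was 2.16, 2.12 and 2.35 with ASLAN003, against 12.8, 14.3 and 8.07 with DMSO. In MOLM-14 it was 2.69, 4.24 and 5.04 with ASLAN003, against 11.4, 8.65 and 5.34 with DMSO. The groups did not overlap in either line, although in MOLM-14 the nearest libraries were close. The log2 difference was -2.37 in KG-1 and -1.07 in MOLM-14, each with a two-sided exact permutation p = 0.1, the smallest that 3 libraries against 3 can give. No pseudocount was added to the ratio, and IL1B was only 0.44 to 0.73 FPKM in KG-1 with DMSO. The size of the KG-1 difference therefore rests on low values. Without MOLM-14 ASLAN003 replicate 1, the lowest in its group, the MOLM-14 difference was -0.81, still with no overlap (exact permutation p = 0.2, the smallest that 2 libraries against 3 can give).

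**Figure D2:**
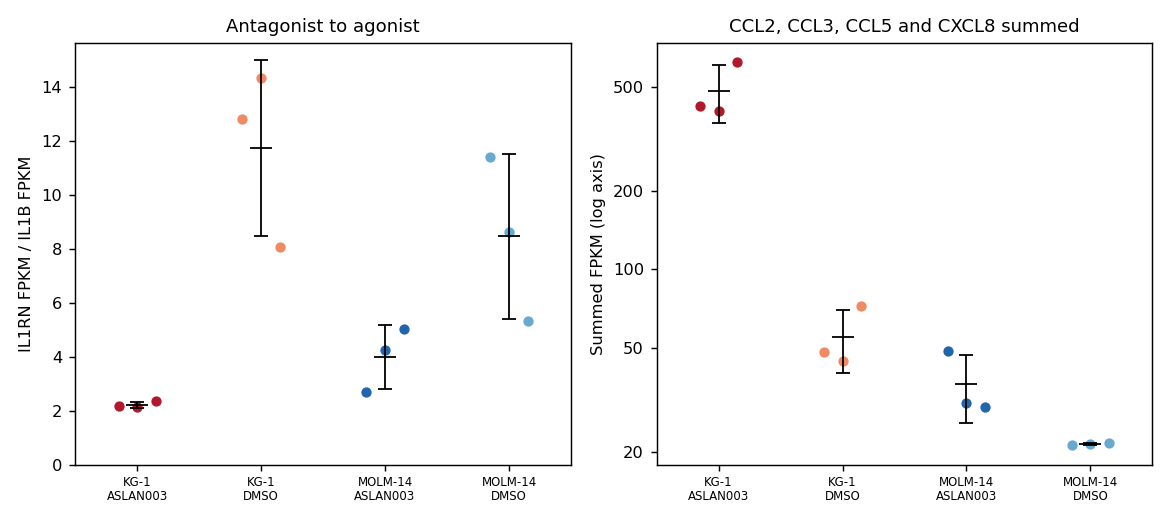
Left, the ratio of IL1RN to IL1B in FPKM within each library. Right, the summed FPKM of CCL2, CCL3, CCL5 and CXCL8 on a log axis. Points are single libraries and bars the mean and SD (n = 3) of KG-1 with ASLAN003, KG-1 with DMSO, MOLM-14 with ASLAN003 and MOLM-14 with DMSO. The ratio is 2.12 to 2.35 in KG-1 with ASLAN003, and the summed chemokine level there lies above all other groups.

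IL18, whose precursor is kept in store by many cell types, was the gene of the 7 that passed the test in neither line. It lies on chromosome 11 (112143251 to 112164117, minus strand). KG-1 had 7.40, 8.80 and 7.80 FPKM with ASLAN003, against 8.70, 8.32 and 11.19 FPKM with DMSO. MOLM-14 had 6.04, 14.37 and 11.45 FPKM with ASLAN003, against 11.93, 11.33 and 10.07 FPKM with DMSO. Both pairs of groups overlapped, and the low MOLM-14 library was ASLAN003 replicate 1. The log2 change was -0.20 in KG-1 (95% interval -0.71 to 0.31, limma adjusted p = 0.556) and -0.13 in MOLM-14 (95% interval -0.64 to 0.38, adjusted p = 0.777). Without ASLAN003 replicate 1 the MOLM-14 value was 0.19 (adjusted p = 0.489).

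**Figure D3:**
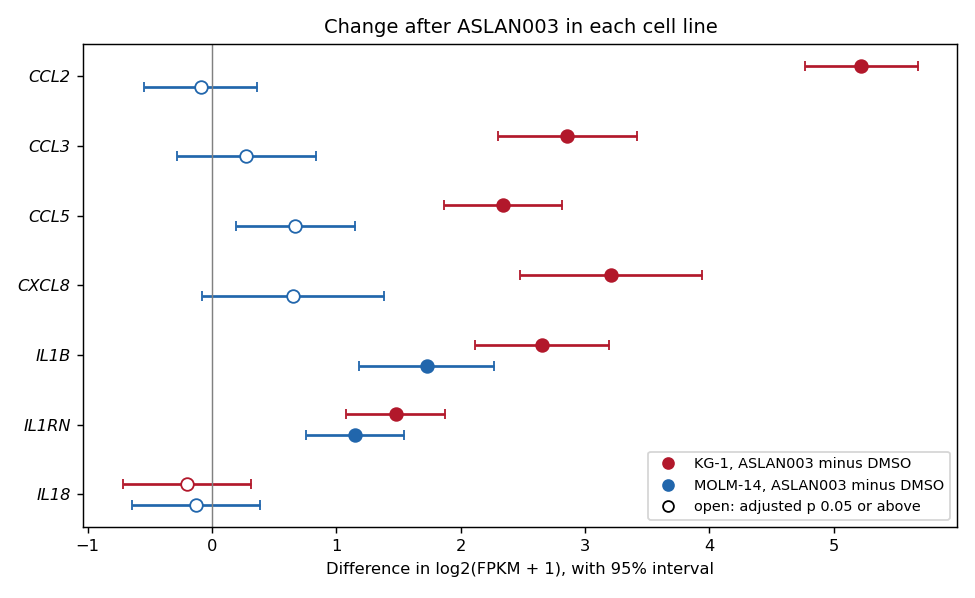
Change in log2(FPKM + 1), ASLAN003 minus DMSO, of the 7 measured genes in KG-1 and MOLM-14, with 95% intervals from the limma fit. Filled points passed at an adjusted p under 0.05 and open points did not. The KG-1 changes run to 5.22 for CCL2, whose MOLM-14 point is at -0.09.

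With DMSO the lines differed in part of these genes. KG-1 DMSO was higher than MOLM-14 DMSO for CCL2 (log2 difference 2.24, limma adjusted p = 2.19e-06), CXCL8 (1.81, adjusted p = 0.000716) and CCL5 (1.09, adjusted p = 0.00128). It was lower for IL1RN (-0.82, adjusted p = 0.00243) and IL1B (-0.68, adjusted p = 0.0381). Thus 5 of the 7 were called, 3 higher and 2 lower, against 49.2% of all tested genes called, 27.1% higher and 22.1% lower. With so large a share of all genes called, the count is not read as a result about these 7. CCL3 did not overlap between the lines but was not called (0.58, adjusted p = 0.0798), and summed with CCL3L3 it was (0.86, adjusted p = 0.0106). IL18 overlapped. The IL1B call was lost without any of KG-1 DMSO replicates 1, 2 and 3, MOLM-14 DMSO replicates 2 and 3 or KG-1 ASLAN003 replicate 1 (adjusted p 0.0517 to 0.110), and after the rescaling (-0.59, adjusted p = 0.0701).

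The order of levels within a group differed accordingly. In KG-1 with ASLAN003, CCL5 and CCL2 led with overlapping libraries, followed by CXCL8, which stood apart from both neighbours, then by IL1RN overlapping CCL3, and last by IL1B and IL18, which overlapped. In KG-1 with DMSO the order was CCL5, IL18, IL1RN, CCL2, CXCL8, CCL3 and IL1B, of which CCL2 and CXCL8 overlapped, as did CCL3 and IL1B. MOLM-14 with ASLAN003 had CCL5 and IL1RN first, overlapping, then IL18 and IL1B, also overlapping, with CXCL8, CCL3 and CCL2 last. In MOLM-14 with DMSO, CCL5 stood alone above IL1RN and IL18, which overlapped, and IL1B stood above CXCL8, CCL3 and CCL2. Across groups, KG-1 DMSO and MOLM-14 ASLAN003 overlapped in CCL5 level.

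Other chemokine ligands were measured from a list of 41, of which 6 have a row and were tested. In KG-1 with ASLAN003, 5 of the 6 rose and none fell (median log2 change 1.43), and in MOLM-14 1 rose (median 0.03). CCL3L3 may share fragments with CCL3, so its rise need not be separate from that of CCL3. The MOLM-14 median rests in part on genes near 0. There CCL4L2 was listed at 0, CXCL1 was at most 0.14 FPKM and CCL20 at most 0.54 FPKM. Of all tested genes 19.4% were called higher in KG-1 and 9.69% in MOLM-14. CCL4L2 and CXCL1 passed the filter only through the treated KG-1 libraries, where they are high, so they had to differ. They add nothing to the KG-1 count, which was 3 to 5 over the alternatives. The KG-1 median includes both of them and CCL3L3 and is given as a description only. Those called in KG-1 were CCL3L3 (3.25, limma adjusted p = 3.1e-05), CCL4L2 (2.03, adjusted p = 6.24e-05), CXCL1 (1.83, adjusted p = 7.82e-06), CCL20 (1.04, adjusted p = 0.00719) and CCL23 (0.96, adjusted p = 0.0150). CCL4L2, a near copy of CCL4 whose reads may be shared with it, had 6.20, 4.03 and 7.48 FPKM in KG-1 with ASLAN003, against 0.22, 0.60 and 1.30 FPKM with DMSO, and was listed at 0 in all MOLM-14 libraries. CXCL1, a neutrophil attractant, had 3.94, 3.57 and 3.65 FPKM in KG-1 with ASLAN003, against 0.29, 0.29 and 0.40 FPKM with DMSO. CCL20, the ligand of CCR6, had 7.19 to 8.87 FPKM in KG-1 with ASLAN003 and 2.35 to 5.46 FPKM with DMSO. Its KG-1 call was lost with a pseudocount of 0.1 (adjusted p = 0.145), where the change was 1.24 ± 0.61 (SE), against an SE of 0.25 in the main fit.

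CCL23, a ligand of CCR1, was the chemokine ligand that rose in MOLM-14. It had 8.0, 6.66 and 5.09 FPKM in MOLM-14 with ASLAN003, against 1.78, 1.94 and 0.94 FPKM with DMSO (log2 change 1.58, limma adjusted p = 0.00291). Without ASLAN003 replicate 1 the change was 1.44 (adjusted p = 0.00957), and with a pseudocount of 0.1 it was not called (adjusted p = 0.0616). In KG-1 it had 1.31, 1.83 and 0.73 FPKM with ASLAN003, against 0.55, 0 and 0 FPKM with DMSO. The KG-1 call was lost without ASLAN003 replicate 2 or DMSO replicate 2 or 3 (adjusted p 0.0595 to 0.0700), and the changes of the 2 lines were not shown to differ (adjusted p = 0.346).

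Of 23 chemokine receptors 9 have a row and 8 were tested. In KG-1 4 rose and 1 fell (median log2 change 0.62), and in MOLM-14 5 rose and none fell (median 0.91). Of all tested genes 33.7% were called in KG-1, 19.4% higher, and 13.0% in MOLM-14, 9.69% higher. Over the alternatives 3 to 5 receptors were called higher and 0 to 2 lower in KG-1 (5 and 2 without MOLM-14 ASLAN003 replicate 1), and 4 to 5 higher in MOLM-14 (5 without that library). CCR1, a receptor of CCL3, CCL5 and CCL23, rose by 1.83 in KG-1 (limma adjusted p = 1.11e-05) and 0.96 in MOLM-14 (adjusted p = 0.00522). CXCR2, a receptor of CXCL8 and CXCL1, rose by 1.52 in KG-1 (adjusted p = 0.000103) and 0.86 in MOLM-14 (adjusted p = 0.0159). The MOLM-14 call of CXCR2 was lost without MOLM-14 DMSO replicate 2 (adjusted p = 0.0656) and with the line fitted alone (adjusted p = 0.122). Without ASLAN003 replicate 1 the MOLM-14 changes were 0.80 for CCR1 (adjusted p = 0.0145) and 0.68 for CXCR2 (adjusted p = 0.0458). CXCR4, the receptor of CXCL12, had 48.85 to 50.09 FPKM in KG-1 with ASLAN003 and 23.77 to 24.80 FPKM with DMSO, and 198.38 to 260.98 FPKM in MOLM-14 with ASLAN003 and 90.53 to 106.70 FPKM with DMSO. Its log2 changes were 0.99 in KG-1 (adjusted p = 2.08e-05) and 1.2 in MOLM-14 (adjusted p = 5.68e-05).

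CCR2, the receptor of CCL2, moved in opposite directions in the 2 lines. KG-1 had 28.71, 28.93 and 31.98 FPKM with ASLAN003, against 36.23, 39.45 and 44.26 FPKM with DMSO. MOLM-14 had 41.82, 33.85 and 42.64 FPKM with ASLAN003, against 17.77, 18.56 and 17.17 FPKM with DMSO. The groups did not overlap in either line, with a log2 change of -0.41 in KG-1 (limma adjusted p = 0.0188) and 1.10 in MOLM-14 (adjusted p = 0.000192). The difference was -1.50 ± 0.17 (SE, limma adjusted p = 0.000289). The KG-1 call alone was lost without ASLAN003 replicate 1 or 2 or DMSO replicate 2 or 3 (adjusted p 0.0524 to 0.0839), and after the rescaling its value was -0.26 (adjusted p = 0.148). CX3CR1, the fractalkine receptor, rose in MOLM-14 (1.2, adjusted p = 0.00131), while its KG-1 call (0.49, adjusted p = 0.0493) was lost without KG-1 ASLAN003 replicate 1 or 2 or any of the DMSO libraries (adjusted p 0.0560 to 0.184), and after median centring or quantile normalization and with the replicate block (adjusted p 0.0712 to 0.134).

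Of 9 interleukin-1 family receptors and decoys 5 were tested. In KG-1 4 rose (median log2 change 0.76), while in MOLM-14 none was called (median -0.09), with or without ASLAN003 replicate 1. Without MOLM-14 ASLAN003 replicate 3, 1 was called higher in MOLM-14. The MOLM-14 median is the value of IL18RAP, a gene near 0 there. These counts stand beside 19.4% of all tested genes called higher in KG-1 and 13.0% called in MOLM-14, and 2 to 4 were called in KG-1 over the alternatives. These were the 2 chains of the interleukin-18 receptor, IL18R1 (1.06, limma adjusted p = 0.00293) and IL18RAP (0.98, adjusted p = 0.00103), the shared accessory chain IL1RAP (0.76, adjusted p = 0.0119) and SIGIRR, a negative regulator (0.75, adjusted p = 0.00498). IL18R1 had 35.40, 41.55 and 43.93 FPKM in KG-1 with ASLAN003, against 17.84, 21.25 and 17.40 FPKM with DMSO, and at most 0.61 FPKM in MOLM-14 with either treatment. IL18RAP had 13.22 to 19.73 FPKM in KG-1 with ASLAN003 and 7.44 to 8.11 FPKM with DMSO, and at most 0.17 FPKM in MOLM-14. With a pseudocount of 0.1 IL18R1 and IL18RAP were not called in KG-1 (adjusted p = 0.264 and 0.0549). Their KG-1 changes were then 1.09 ± 0.70 and 1.06 ± 0.39 (SE), against SEs of 0.22 and 0.18 in the main fit. The shared spread includes the MOLM-14 libraries, where both genes were near 0. IL1RAP was not called in KG-1 without KG-1 DMSO replicate 2 (adjusted p = 0.0577). In MOLM-14 IL1RAP had 19.08, 19.15 and 11.03 FPKM with ASLAN003, against 11.97, 10.90 and 11.01 FPKM with DMSO. None of 8 other interleukin-1 family ligands has a row in the table used.

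Downstream of the interleukin-1 receptor, 10 of 11 signalling genes were tested, with 4 higher in KG-1 (median log2 change 0.19) and 2 higher in MOLM-14 (median 0.10). Called higher were 19.4% of all tested genes in KG-1 and 9.69% in MOLM-14, so the MOLM-14 count of this list is near the background. It was 1 without MOLM-14 ASLAN003 replicate 1 and 0 to 3 over the alternatives, and the KG-1 count was 4 to 5. IRAK3, an inhibitory kinase-like protein, rose in both lines (0.56, limma adjusted p = 0.00164, in KG-1 and 0.57, adjusted p = 0.00501, in MOLM-14), though its MOLM-14 call was lost with the line fitted alone (adjusted p = 0.0596). TOLLIP, another inhibitor, rose by 0.99 in KG-1 (adjusted p = 0.00215) and had a change of 0.70 in MOLM-14 (adjusted p = 0.0377), a call lost without KG-1 ASLAN003 replicate 1, KG-1 DMSO replicate 3, MOLM-14 ASLAN003 replicate 1 or any MOLM-14 DMSO library (adjusted p 0.0514 to 0.131). The MOLM-14 call of TOLLIP was also lost after median centring (adjusted p = 0.0932) and after quantile normalization (0.0916). The same call was lost with neither mean trend nor robust estimation (adjusted p = 0.0513). Weighting libraries by spread (adjusted p = 0.201) and fitting the line alone (0.112) lost it too. TAB2 (0.81, adjusted p = 0.000294) and the adaptor MYD88 (0.54, adjusted p = 0.00869) rose in KG-1.

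The inflammasome list holds genes of the machinery that releases active interleukin-1 beta and interleukin-18, and genes that regulate or inhibit it. Of its 17 genes 12 were tested. In KG-1 10 rose and none fell (median log2 change 0.91), and in MOLM-14 5 rose (median 0.33), against 19.4% of all tested genes called higher in KG-1 and 9.69% in MOLM-14. NLRC4 passed the filter only through the treated KG-1 libraries and adds nothing to the KG-1 count, which was 9 to 11 over the alternatives. The KG-1 median includes NLRC4 and is given as a description only. The MOLM-14 count was 4 higher and 1 lower without ASLAN003 replicate 1, 2 higher with the line fitted alone and 7 higher after the rescaling. MEFV, which encodes the sensor pyrin, had 13.35, 11.90 and 12.83 FPKM in KG-1 with ASLAN003, against 1.91, 1.34 and 1.5 FPKM with DMSO (2.41, limma adjusted p = 7.75e-07). In MOLM-14 it had 11.15, 11.27 and 8.54 FPKM with ASLAN003, against 3.01, 3.80 and 3.34 FPKM with DMSO (1.36, adjusted p = 0.000329, and 1.31, adjusted p = 0.00122, without ASLAN003 replicate 1). CASP1, the converting enzyme, had 42.07, 44.40 and 36.55 FPKM in KG-1 with ASLAN003, against 12.56, 17.81 and 17.10 FPKM with DMSO (1.33, adjusted p = 0.000835). In MOLM-14 it had 54.66, 71.09 and 37.43 FPKM with ASLAN003, against 27.87, 28.05 and 45.47 FPKM with DMSO, overlapping and not called (0.66, adjusted p = 0.0839).

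NLRP1 rose in both lines (1.47, limma adjusted p = 0.00103, in KG-1 and 1.69, adjusted p = 0.00197, in MOLM-14), as did PYCARD, the adaptor ASC (0.85, adjusted p = 4.41e-05, in KG-1 and 0.50, adjusted p = 0.00701, in MOLM-14). In MOLM-14 the PYCARD call was lost with the line fitted alone (adjusted p = 0.0662), and without ASLAN003 replicate 1 the change of NLRP1 was 1.37 (adjusted p = 0.00323). NLRC4, an inflammasome protein that responds to bacterial flagellin, rose in KG-1, with 8.13, 8.41 and 5.02 FPKM with ASLAN003, against 1.00, 1.48 and 0.95 FPKM with DMSO (1.91, adjusted p = 4.83e-05). In MOLM-14 it was at 0.51 FPKM or less in every library. NEK7, a partner of NLRP3, rose in MOLM-14 (0.47, adjusted p = 0.0405), a call lost without KG-1 ASLAN003 replicate 1, any KG-1 DMSO library, MOLM-14 ASLAN003 replicate 2 or MOLM-14 DMSO replicate 1 or 2 (adjusted p 0.0517 to 0.124). The NEK7 call was also lost after median centring (adjusted p = 0.142) or quantile normalization (0.144) and with the replicate block (0.0591). The same call was lost with neither mean trend nor robust estimation (adjusted p = 0.0506), with weights (0.0827) and with the line fitted alone (0.146). ADAM10, a protease that sheds CXCL16 from the membrane, rose by 0.97 in KG-1 (limma adjusted p = 7.9e-06) and 0.70 in MOLM-14 (adjusted p = 0.000681). ADAM17, a related protease, rose by 0.42 in KG-1 (adjusted p = 0.0186), a call lost without KG-1 ASLAN003 replicate 1 or 2 or KG-1 DMSO replicate 1 or 2 (adjusted p 0.0516 to 0.0809), and after median centring (adjusted p = 0.0706) or quantile normalization (0.0722).

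**Figure D4:**
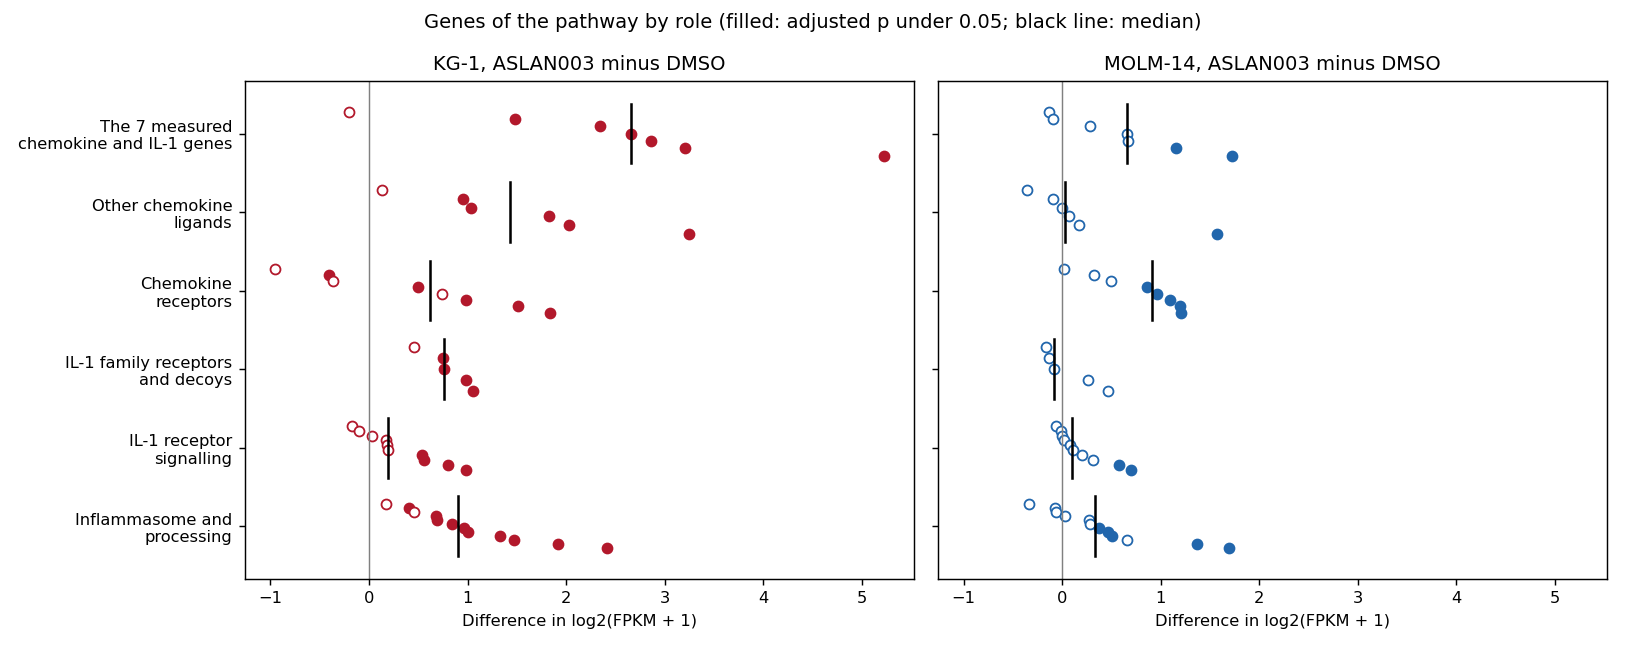
Change in log2(FPKM + 1), ASLAN003 minus DMSO, of the 7 measured chemokine and IL-1 genes and of 5 lists of related genes, in KG-1 (left) and MOLM-14 (right). Each point is 1 tested gene, filled where it passed at an adjusted p under 0.05, and the black bar is the median of the list. The inflammasome median is 0.91 in KG-1 and 0.33 in MOLM-14, and the receptor median is 0.62 in KG-1 and 0.91 in MOLM-14. The medians include genes that passed the filter only through the treated KG-1 libraries.

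Myeloid markers changed in both lines as well. ITGAM, the integrin chain CD11b, rose by 3.97 in KG-1 (limma adjusted p = 3.02e-07) and 2.18 in MOLM-14 (adjusted p = 0.000184), or 1.94 there without ASLAN003 replicate 1 (adjusted p = 0.000416). LYZ, which encodes lysozyme, rose by 3.19 in KG-1 (adjusted p = 1.37e-08) and 2.32 in MOLM-14 (adjusted p = 6.82e-07), or 2.20 without that library (adjusted p = 6.35e-07). MPO, the myeloperoxidase of early granules, fell by 2.05 in KG-1 (adjusted p = 1.57e-06) and by 1.89 in MOLM-14 (adjusted p = 3.44e-05). Of 9 myeloid markers, 5 rose and 2 fell in KG-1, and 5 rose and 1 fell in MOLM-14, against 33.7% of all tested genes called in KG-1 and 13.0% in MOLM-14. Without MOLM-14 ASLAN003 replicate 1, 3 rose and 1 fell in MOLM-14, and 2 to 5 rose there over the alternatives. CD14, a monocyte marker, rose in KG-1 (1.67, adjusted p = 0.00670), but it passed the filter only through the treated KG-1 libraries, where it is high, so it had to differ and adds nothing to the count. CSF1R rose in MOLM-14 (1.12, adjusted p = 0.0332), a call lost without MOLM-14 ASLAN003 replicate 1 (0.71, adjusted p = 0.0737) or any of the MOLM-14 DMSO libraries (adjusted p 0.0524 to 0.118), after median centring (0.0564) or quantile normalization (0.0663), with weights (0.132) and with the line fitted alone (0.158). Of 3 B cell markers only CD79A has a row, at 5.57 to 7.71 FPKM in KG-1 with ASLAN003, 0.84 to 1.98 FPKM in KG-1 with DMSO and at most 0.45 FPKM in MOLM-14. COL1A1, the only stromal or endothelial marker of 6 with a row, was at 7.39 to 10.72 FPKM in KG-1 with ASLAN003 and 6.30 to 7.52 FPKM in KG-1 with DMSO, and was not called. The part of these markers in the cytokine results was not tested.

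For each gene the 3 most similar profiles were sought among 10501 tested genes that reached a group mean of 5 FPKM, by the root mean square difference of log2(FPKM + 1) over the 12 libraries after each gene was centred on its own mean. The nearest profiles were CYBB for CCL2 (0.53), ADORA3 for CCL3 (0.26), LILRA2 for CCL5 (0.26), WNT8A for CXCL8 (0.45), MEFV for IL1B (0.25), S100A6 for IL1RN (0.19) and DFFB for IL18 (0.13). Next came HP and FCAR for CCL2, LRRK2 and ADGRE3 for CCL3, TLR4 and YPEL3 for CCL5, MNDA and FPR2 for CXCL8, CD86 and IL16 for IL1B, and MXD1 and SNX20 for IL1RN. A small value means that levels moved in parallel across libraries, and it is smaller for genes that vary little. These values are a description over libraries that fall into 4 groups.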

How the data were processed

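Gene levels were deposited as log2 values, 1 for each gene in each of the 12 libraries. Read back as log2(FPKM + 1), they fall on hundredths of an FPKM, and this was taken as the scale of the authors. Per the submitters' processing notes the builds were hg38 and GRCh38 and the tools RSEM 1.2.25, STAR 2.4.2a and bcl2fastq 2.17.1.14; they name no gene annotation. Per the labels' protocols a stranded total RNA kit was used. Because FPKM is relative to a whole library, very abundant transcripts can move all other values.

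No read counts are given. Steps in the low values gave the depth estimate, with transcripts shortened by 170 bases for fragment length. Between 53 and 74 low values were used per library, and 74.1% to 90.6% of them came within 0.15 of a whole fragment (30.0% if values were uniform). The depth was picked from many candidates for a high share of this kind. That choice raises the share, so the comparison with 30.0% is no test of the estimate. No counting interval was computed.

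The tested genes reached 1 FPKM in 3 or more libraries. They were fitted with limma 3.58.1 (R 4.3.3) by 4 group means, with a pseudocount of 1, a mean trend and robust estimation. The spread of a gene was shared by the 4 groups, although the groups differed in spread. The median SD within a group was 0.155 in KG-1 with ASLAN003 and 0.129 in KG-1 with DMSO. In MOLM-14 the median SD was 0.271 with ASLAN003 and 0.177 with DMSO. Tests were two-sided, adjusted by Benjamini-Hochberg over all tested genes, and called at an adjusted p under 0.05. The 10 genes, the lists and the tests were chosen with earlier results of these data known. The text names the 10 genes and, per list and line, up to 4 called members with the largest change. Values in the other line are given for some of them, not all. A rise given for 1 line does not mean that the other line was without change. Alternatives were a pseudocount of 0.1, other filters, median centring, quantile normalization and rescaling. Further alternatives were a fit with neither trend nor robust estimation, a replicate block, weights, each line alone and each library left out. A trial on simulated data used normal noise with 1 spread per gene for all groups, as the fit assumes. The measured groups differ in spread, so that trial is no check of the calls here. Positions are those of GENCODE 29.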

Additional observations from a re-analysis of the deposited data

Results flagged for a closer look

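The change with ASLAN003 differed between KG-1 and MOLM-14, by the direct limma test of the difference (KG-1 minus MOLM-14, Benjamini-Hochberg adjusted), for 16 of the genes named above. Of all tested genes 9.94% were called for this difference, and 5.05% were called with a positive difference. Genes were named as members or for a large change in 1 line, which favours such differences. The count of 16 is therefore not a result about them. The genes of the chemokine group had differences of 5.31 (CCL2), 3.08 (CCL3L3), 2.58 (CCL3), 2.56 (CXCL8), 2.03 (CCL4L2), 1.76 (CXCL1), 1.67 (CCL5) and 1.39 (CCL20). The receptor CCR2 had a difference of -1.50, with every treated KG-1 library below and every treated MOLM-14 library above its controls. In the interleukin-1 and inflammasome groups the differences were 1.99 (NLRC4), 1.22 (IL18R1), 1.07 (IL18RAP) and 1.05 (MEFV). Among the lineage markers they were 1.78 (ITGAM), 1.75 (CD79A) and 0.87 (LYZ).

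Of these genes, CCL2, CCL4L2, CXCL1, CCL20, NLRC4, IL18R1, IL18RAP and CD79A were at 0.61 FPKM or less in every MOLM-14 library, where log2(FPKM + 1) can show little change. CCL3, CCL4L2, CXCL1, NLRC4 and CD79A passed the filter on low levels only through the treated KG-1 libraries, where they are high, so they had to differ. With a pseudocount of 0.1 the differences of CCL3L3 (adjusted p = 0.0889), CXCL1 (0.0535), CXCL8 (0.196), CCL20 (0.0634), IL18R1 (0.349), IL18RAP (0.0917) and CD79A (0.162) were not called. The difference of CCL20 was also lost without KG-1 ASLAN003 replicate 1, 2 or 3, KG-1 DMSO replicate 1 or 2 or MOLM-14 DMSO replicate 1 or 2 (adjusted p 0.0505 to 0.0816), that of IL18R1 without any KG-1 library, MOLM-14 ASLAN003 replicate 2 or MOLM-14 DMSO replicate 1 or 2 (adjusted p 0.0507 to 0.0785), and that of IL18RAP without KG-1 ASLAN003 replicate 1 or 2 or KG-1 DMSO replicate 1 (adjusted p 0.0574 to 0.0590). With the replicate block the differences of CCL20 (limma adjusted p = 0.0515) and IL18R1 (0.0517) were not called.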

How the results depend on the processing

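Of 606 values of the 7 genes under the alternatives, 585 kept their direction and their side of the threshold, 8 gained a call, 9 lost one and 4 changed sign. All changes of sign were of IL18, with a MOLM-14 change of 0.19 without MOLM-14 ASLAN003 replicate 1 (its range over left-out libraries was -0.37 to 0.19) and a difference between the lines (range -0.40 to 0.17) of 0.05 without KG-1 DMSO replicate 3, 0.17 without MOLM-14 ASLAN003 replicate 2 and 0.01 without MOLM-14 ASLAN003 replicate 3. Leaving out each library in turn called 6 of the 7 genes in KG-1 each time, 2 to 3 in MOLM-14, 4 to 5 for the difference and 4 to 5 between the DMSO groups. Of 1279 values of the other named genes, 1186 kept their call and 93 lost it, with no change of sign. Of 22 genes of the 7 and the lists called in MOLM-14, 18 were also called without MOLM-14 ASLAN003 replicate 1, 4 were not (TOLLIP, CSF1R, NLRP3 and CSF3R), and GSDMD, lower there, was called in addition.

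The number of genes called in KG-1, 4494, was 7014 with libraries weighted by spread and 3316 to 5252 with 1 library left out. In MOLM-14 the 1738 calls became 953 with weights, 346 with the line fitted alone and 1070 to 2319 with 1 library left out. For the difference, 1327 calls became 2226 with weights and 745 to 2357 with 1 library left out, and between the DMSO groups 6571 became 5561 to 7266. The share of calls that were higher was 57.5% in KG-1 and 74.5% in MOLM-14, against 42.7% and 44.1% after median centring, 46.1% and 57.1% after quantile normalization and 72.7% and 88.1% after rescaling, and between the DMSO groups 65.8% after rescaling against 55.1%. These scalings put the median change of all genes at -0.07, -0.05 and 0.18 in KG-1 and at -0.07, -0.02 and 0.19 in MOLM-14, small beside the changes of the called genes of the 7. The cause of these shifts was not tested.

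Samples share only a replicate number: deviations from group means correlated by 0.02 to 0.04 in same-numbered KG-1 samples and by -0.00 to 0.10 in MOLM-14, and not every sample correlated best with its own number. With the replicate block, 4364 genes were called in KG-1, 1586 in MOLM-14, 1206 for the difference and 6496 between the DMSO groups, and of the 7 genes it changed the call of IL1B between the DMSO groups (adjusted p = 0.0540). Depth limits statements on CCL2 and CCL3 in MOLM-14, where levels were near 0.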
